A study of Mus musculus with 34 samples.

Results

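Liver tumours raised with one exon-skipped isoform of beta-catenin, here called skip1, were compared with tumours raised with another, called skip2. The samples were chosen by their source label, as those named skip1 induced (5 libraries) and skip2 induced (2 libraries), which makes 7 of the 34 samples of the study. The study profiled total RNA of frozen mouse liver tumours, with strand-specific libraries, after hydrodynamic injection, in which a large volume of DNA solution injected into a tail vein carries the DNA into hepatocytes. All groups used here share that treatment label: skip1 induced, skip2 induced, skip1 alone (3 libraries), skip2 alone (2), wild type liver (2) and dN90 induced, with a beta-catenin lacking its N terminus (4). The labels give neither the strain, sex, age or time after injection, nor what was added in the induced samples beyond the isoform. For the skip2 samples the source label names skip2 while a second field repeats skip1, and the source label was followed. Nothing states that libraries of 1 group came from separate animals, so each p-value measures the spread between these libraries.

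Beta-catenin, encoded by Ctnnb1, carries the Wnt signal to the nucleus, where it acts with TCF and LEF factors on DNA. In the liver it sets the programme of hepatocytes around the central vein, where glutamine synthetase (Glul) is made, and activated forms drive liver tumours. Adult mouse liver also holds a set of genes expressed mainly in males, which depends on the pulses of growth hormone secretion and on the transcription factor STAT5B.

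The values are normalized counts, in which read counts per gene have been scaled to make libraries comparable. Differences are skip1 minus skip2 on the scale log2(value + 1), tested with limma across all 18 libraries, and a gene was called at an adjusted p under 0.05 over the 6592 of 14086 genes with a mean of at least 10. The skip2 induced libraries were the deepest, at about 933146 and 815419 reads estimated from the steps between low values, against 412526 to 566730 in skip1 induced libraries. Between 592 and 1235 of the 14086 genes were at 0 in each of the 7 tumour libraries.

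Skip1 tumours kept far more of the male-biased liver programme than skip2 tumours, and had more Glul, while skip2 tumours had more H19 and Igfbp2. In all, 233 of 6592 genes (3.53%) were called, of which 204 (3.09% of those tested) were called higher with skip1 and 29 (0.44%) lower. With log2 depth as a covariate 13 genes were called. The skip2 induced libraries were the deepest, so that fit cannot separate depth from group. The count of 233 depended on skip2 induced replicate 1, with far fewer genes called without it than without replicate 2. With the lone skip2 library assumed to vary like the other groups, the median difference of the 204 genes was 2.26 against replicate 1 alone and 1.03 against replicate 2 alone. For the 29 genes lower with skip1 it was -1.18 and -1.19.

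Only 8 of the 233 genes were called in every one of the settings in which they were tested. Of these, 6 were higher with skip1 (Cyp4a12a, Hsd3b5, Sult2a8, Ces3a, Ugt2b1 and Zmym1) and 2 lower (Igfbp2 and Itih5). Apart from these, Adh6-ps1 and Tuba1c were the only genes still called without skip2 induced replicate 1, so every other gene named here as called lost its call there. Tuba1c, a tubulin gene, was at 28.7 to 50.6 with skip1 and 33.1 and 7.74 with skip2, and lost its call without replicate 2, where its difference went from 1.31 to 0.33.

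Promoters are shown for 5 of the 8 genes called in every setting, without Cyp4a12a, Ces3a and Zmym1. They are RefSeq sequences of GRCm38.p6, from 250 bases before to 50 after the 5'-most start, each written along its own gene's strand. Capitals mark matches to the TCF/LEF-type motif CTTTGA on either strand.
Hsd3b5 (chr3:98645485-98645784, minus strand): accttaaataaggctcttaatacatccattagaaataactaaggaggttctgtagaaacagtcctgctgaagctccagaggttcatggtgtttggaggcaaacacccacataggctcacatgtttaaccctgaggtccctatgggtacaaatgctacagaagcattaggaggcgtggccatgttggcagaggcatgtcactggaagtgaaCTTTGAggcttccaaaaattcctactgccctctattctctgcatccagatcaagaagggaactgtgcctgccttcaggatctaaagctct
Sult2a8 (chr7:14446538-14446837, minus strand): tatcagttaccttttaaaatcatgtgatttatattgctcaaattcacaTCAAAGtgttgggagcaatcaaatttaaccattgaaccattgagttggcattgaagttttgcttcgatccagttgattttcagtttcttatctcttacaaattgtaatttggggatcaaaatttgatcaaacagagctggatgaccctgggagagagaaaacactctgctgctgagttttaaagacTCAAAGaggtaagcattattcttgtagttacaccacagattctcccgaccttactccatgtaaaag
Ugt2b1 (chr5:86926454-86926753, minus strand): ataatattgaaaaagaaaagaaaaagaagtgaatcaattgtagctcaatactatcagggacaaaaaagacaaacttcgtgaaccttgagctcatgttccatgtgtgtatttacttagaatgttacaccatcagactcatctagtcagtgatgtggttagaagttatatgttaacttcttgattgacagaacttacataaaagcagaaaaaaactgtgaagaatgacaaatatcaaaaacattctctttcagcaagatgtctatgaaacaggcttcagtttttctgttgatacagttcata
Igfbp2 (chr1:72824230-72824529, plus strand): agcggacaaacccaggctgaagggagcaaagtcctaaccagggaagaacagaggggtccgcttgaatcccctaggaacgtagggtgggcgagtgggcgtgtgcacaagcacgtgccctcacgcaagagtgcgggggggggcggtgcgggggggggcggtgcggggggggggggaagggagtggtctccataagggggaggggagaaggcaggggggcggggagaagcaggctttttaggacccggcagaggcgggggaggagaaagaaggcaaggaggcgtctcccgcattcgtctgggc
Itih5 (chr2:10153293-10153592, plus strand): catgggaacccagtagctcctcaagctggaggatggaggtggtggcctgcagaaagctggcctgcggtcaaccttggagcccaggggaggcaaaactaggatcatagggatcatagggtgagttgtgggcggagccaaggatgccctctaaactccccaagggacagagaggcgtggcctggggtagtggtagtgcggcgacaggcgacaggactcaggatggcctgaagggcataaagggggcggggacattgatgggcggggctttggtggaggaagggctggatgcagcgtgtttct

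Hsd3b5 held 1 match and Sult2a8 held 2, and CTTTGA was found in 16% of all 32851 promoters of the table. The STAT5-type motif TTCNNNGAA, present in 8.3% of promoters, and the HNF4-type motif CAAAGTCCA, present in 0.475%, were in none of the 5 windows on either strand, which says only that these letters are not in these windows. The Hsd3b5 start in RefSeq lies upstream of the GENCODE gene, which spans 98618634 to 98630252 on chromosome 3. Base composition differed, at 46% G and C for Hsd3b5, 36% for Sult2a8, 32% for Ugt2b1, 67% for Igfbp2 and 60.7% for Itih5.

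Cyp4a12a (chromosome 4, 115299046 to 115332815), a male-specific fatty acid hydroxylase, stood at 47.3, 68.5, 29.7, 81.2 and 58.6 in skip1 induced replicates 1 to 5 and at 1.38 and 1.79 in skip2 induced replicates 1 and 2, about 3 estimated reads in each. Every skip1 library lay above both skip2 libraries, as for 10.1% of all genes tested, and the difference was 4.42 (SE 0.43, limma adjusted p = 4.21e-06). Across the settings it ran from 3.17 to 5.46. Libraries of the isoforms alone held more than either tumour group, at 110 to 181, and wild type liver 165 and 169. Its near-identical neighbour Cyp4a12b, with which reads may have been shared, was not called, at 1.86 to 21.5 against 2.30 and 5.36 (1.49, adjusted p = 0.176).

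Hsd3b5, a male-biased hydroxysteroid dehydrogenase, was at 22.6, 26.8, 5.57, 13.5 and 22.4 in skip1 tumours and at 0 and 0.596 in skip2 tumours. The groups did not overlap, with a difference of 3.76 (SE 0.41, limma adjusted p = 2.69e-05). The skip2 libraries held about 0 and 1 estimated reads, so its size is imprecise, and it ran from 2.03 to 5.19 across the settings. Sult2a8 (chromosome 7, 14410686 to 14446769), a sulfotransferase of hepatocytes, was at 80.7, 103, 40.0, 37.0 and 46.9 against 3.68 and 5.36. It differed by 3.40 (SE 0.32, limma adjusted p = 4.17e-06), with skip1 replicates 1 and 2 the highest.

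Ces3a (chromosome 8, 105048601 to 105058413), a carboxylesterase, was at 616, 720, 227, 499 and 480 in skip1 tumours and at 58.7 and 71.1 in skip2 tumours (2.86, SE 0.41, limma adjusted p = 0.00057). Ugt2b1 (chromosome 5, 86916638 to 86926530), a glucuronosyltransferase, was at 152, 216, 97.5, 166 and 160 against 29.4 and 32.8 (2.27, SE 0.32, limma adjusted p = 0.000529). Replicate 3 was the lowest skip1 library for both genes and still stood above both skip2 libraries. Zmym1 (chromosome 4, 127047094 to 127061152), a zinc finger gene chosen after its values were seen, was at 24.8 to 75.8 against 4.60 and 3.57 (2.91, adjusted p = 8.29e-05), while the remaining 11 libraries ranged from 16.5 to 45.7.

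**Figure D1:**
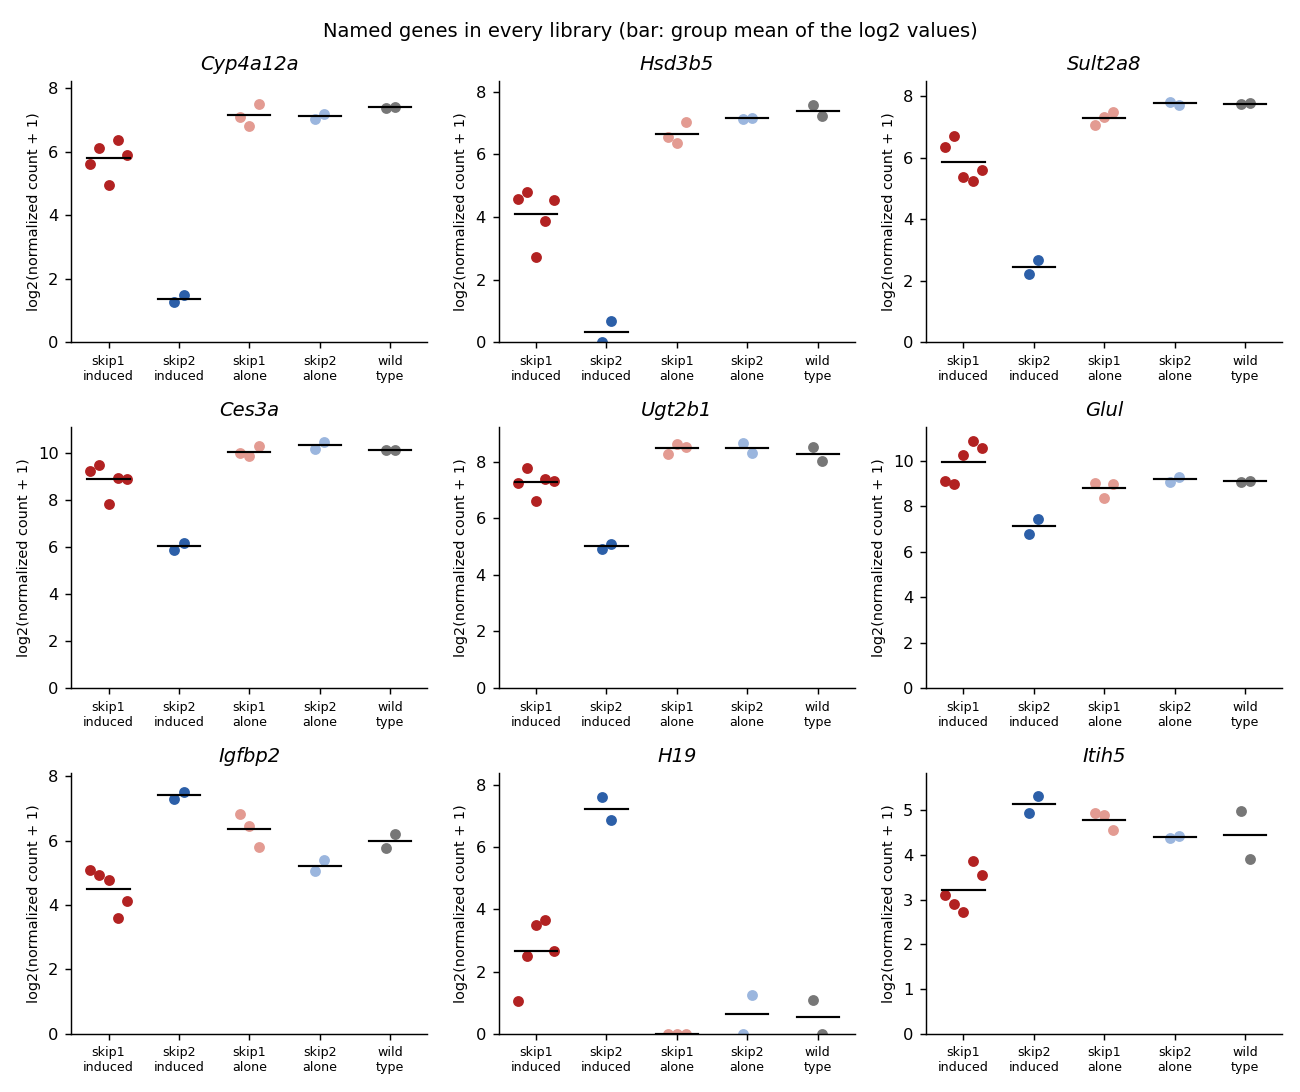
Normalized counts on the log2(value + 1) scale for 9 genes in skip1 induced (5 libraries), skip2 induced (2), skip1 alone (3), skip2 alone (2) and wild type (2) samples, 1 point per library with the group mean as a bar. Cyp4a12a, Hsd3b5, Sult2a8, Ces3a, Ugt2b1 and Glul are higher in each skip1 than in each skip2 tumour library, and Igfbp2, H19 and Itih5 are lower.

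Of 22 genes listed as male-biased, 21 passed the filter on the mean over all 18 libraries. Of these, 12 were called higher with skip1 and 0 lower, against 3.09% and 0.44% of all genes tested. The median difference of the 21 genes was 1.55, against -0.03 over all genes tested, and that of the same genes between the isoforms alone was -0.03. The genes called include Slco1a1, an organic anion transporter, at 77.5 to 94.7 against 16.1 and 22 (2.08, adjusted p = 0.00568), and Cyp7b1, the oxysterol hydroxylase of the alternative bile acid pathway, at 9.29 to 27.8 against 5.52 and 3.57 (1.65, adjusted p = 0.0112). Complement gene C6, at 108 to 202 against 51.5 and 47.7, differed by 1.55 (adjusted p = 0.00261). Elovl3, a fatty acid elongase, was listed at 0 in both skip2 libraries and at 8.32 to 37.3 with skip1. Bcl6, a repressor that is itself part of the list, overlapped between groups (-0.13, adjusted p = 0.948).

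The summed level of the male-biased list was 9741 to 12810 in skip1 tumours and 4108 and 4242 in skip2 tumours. It was 22720 to 26740 in wild type liver and the isoforms alone, so both tumour groups were lower and skip2 the lower of them. The dN90 tumours were lower still, at 1217 to 1659. The sum includes 3 genes of the Mup family described below, among them Mup3. With 5 libraries against 2, the exact two-sided permutation test, which doubles the smaller tail, gave p = 0.0952. This is the smallest value it can take here, and groups that do not overlap always give it. Without skip2 induced replicate 1 the number of male-biased genes called was 3, and without replicate 2 it was 9, with medians of 1.61 and 1.88. The Y-linked gene Ddx3y was detected in every library, at 8.52 to 19 in skip1 and 18.9 and 14.3 in skip2 tumours, and was not called (-0.17, limma adjusted p = 0.891). Xist, the X-inactivation RNA of female cells, was at or below 5.29 in all 7 tumour libraries.

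Albumin (Alb), the main hepatocyte secretory product, lay in skip2 tumours within the range of skip1 tumours. It was at 20190, 35390, 8019, 11660 and 11620 with skip1 and 21230 and 22750 with skip2 (-0.54, SE 0.45, adjusted p = 0.644). Of 30 genes for secreted hepatocyte proteins, limma called 1 lower with skip1, against 0.44% of all genes tested. It was Ahsg, a serum glycoprotein gene, at 2043 to 2792 against 5005 and 5434 (-1.13, limma adjusted p = 0.0177). Limma called 0 of 22 hepatocyte transcription factor genes, 2 at an unadjusted p under 0.05, and voom 0, with a median of -0.22. In tissue samples fewer cells of a type and less RNA per cell cannot be told apart.

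Of 16 genes of the major urinary protein (Mup) family, which encode male-biased pheromone carriers, 10 were called higher with skip1, with a median of 3.68. Of all genes tested, 3.09% were called higher. The list shares 3 genes with the male-biased list, and its members are near-identical, so reads may be split between them. The summed Mup level was 9651 to 20160 in skip1 tumours and 2824 and 3305 in skip2 tumours, against 252.6 to 700.5 in dN90 tumours. Wild type liver held 80370 and 105900. With the isoforms alone the order was the reverse, at 41790 to 73280 with skip1 and 90650 and 92690 with skip2. The median difference of the 16 genes was -0.84 there, with 0 called. The tumour groups did not overlap, again at the smallest exact two-sided permutation p of 0.0952. The 3 shared genes enter both sums, so this is not a result separate from that of the male-biased list.

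Within the family, Mup20 made up most of what skip2 tumours retained, at 2688 and 2519, against 6278, 5694, 8112, 6926 and 5724 with skip1 (1.32, SE 0.32, limma adjusted p = 0.0229). Mup3 was at 1386, 2451, 639, 646 and 992 against 71.0 and 236 (3.03, SE 0.49, limma adjusted p = 0.00184). Mup11, at 44.6 to 1042 with skip1, was listed at 0 in skip2 replicate 1 and at 33.4 in replicate 2. Mup14, at 75.2 to 958 with skip1, was likewise at 0 and 67.3, Mup2 at 51.3 to 552 against 1.43 and 35.7, and Mup10 at 854 to 4318 against 52.9 and 220. For these genes other than Mup20, skip2 replicate 1 was the lower skip2 library. Without skip2 replicate 1 the median Mup difference was 2.19 and 0 members were called by limma; without replicate 2 it was 5.04 and 11 were called. Voom on estimated reads called 7 members.

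**Figure D2:**
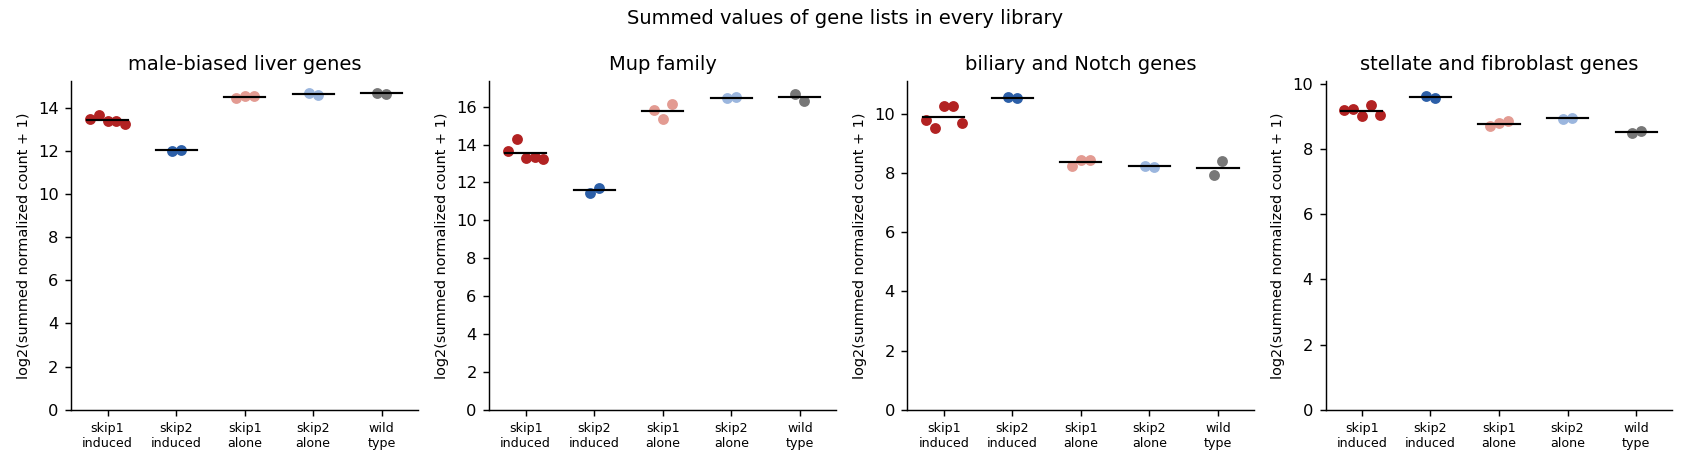
Summed normalized counts of 4 gene lists on the log2(value + 1) scale, 1 point per library with the group mean as a bar, for the 5 groups of samples. Among the groups drawn, male-biased and Mup genes are highest with the isoforms alone and in wild type liver. They are lower in skip1 tumours and lowest in skip2 tumours. Biliary and Notch genes and stellate and fibroblast genes are highest in skip2 tumours. The dN90 tumours are not drawn.

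Of the growth hormone axis, 9 of 16 listed genes passed the filter and 1 was called higher, against 3.09% of all genes tested. It was Lifr, the leukaemia inhibitory factor receptor (0.91, limma adjusted p = 0.0384). The growth hormone receptor Ghr was at 146, 206, 108, 109 and 135 with skip1 and 67.0 and 96.9 with skip2, without overlap but not called (0.76, adjusted p = 0.185). Stat5b (0.03) and Igf1 (-0.15) overlapped between the groups. Egfr, the epidermal growth factor receptor gene, was at 253 to 600 against 161 and 229 (1.10, adjusted p = 0.06). Of 6 female-biased genes that passed the filter, 1 was called lower and 1 higher with skip1, against 0.44% and 3.09% of all genes tested. Fmo2, a flavin monooxygenase, was lower (-1.58, limma adjusted p = 0.0326) and Rarres1 higher (1.63, limma adjusted p = 0.0425). The other 4 had differences below 0, and the median was -0.71, against 0.31 with the depth covariate and 0.02 without skip2 replicate 2. The summed level of 23 female-biased genes was 81.76 to 169.7 in skip1 tumours and 207.7 and 275.5 in skip2 tumours, without overlap. It was 144.2 to 228.9 with skip1 alone, 93.85 and 119.3 with skip2 alone and 233.6 to 446.6 in dN90 tumours.

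The beta-catenin gene itself gives the first check on the groups. Ctnnb1 (chromosome 9, 120929216 to 120960507) was at 1266, 580, 737, 768 and 669 in skip1 and 444 and 457 in skip2 tumours, all above the 125 to 177 of the isoforms alone. The tumour groups did not overlap, but the difference was not called (0.78, SE 0.25, limma adjusted p = 0.0846). It was called without skip1 induced replicate 2 and with array weights. Values per gene do not separate the injected isoform from the mouse's own transcript, nor skip1 from skip2.

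Pericentral genes, which beta-catenin controls in normal liver, differed in 3 of 24 cases, all higher with skip1, with a list median of 0.22. Over all genes tested, 3.09% were called higher. Glul (chromosome 1, 153899944 to 153909723) was at 558, 500, 1227, 1910 and 1540 in skip1 tumours and 110 and 174 in skip2 tumours. Skip1 replicates 1 and 2 lay within the 329 to 636 of the isoforms alone, the other 3 above it, and both skip2 libraries below it (2.85, SE 0.55, limma adjusted p = 0.0073). Slc1a2, which encodes a glutamate transporter, was at 126 to 242 against 17.6 and 33.0 (2.84, adjusted p = 0.0232). Oat, ornithine aminotransferase, was at 160 to 397 against 71.3 and 89.95 but not called (1.72, adjusted p = 0.0708).

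Other pericentral genes did not follow Glul. The cytochrome P450 gene Cyp2e1 was at 2653 to 3733 with skip1 and 3314 and 4095 with skip2 (-0.20, adjusted p = 0.83), and Cyp1a2 overlapped (1.06, adjusted p = 0.215). Of 6 Wnt feedback genes limma called 0, with 1 at an unadjusted p under 0.05, and voom called 1. Axin2, a direct beta-catenin target in many tissues, was at 8.61, 12, 23.2, 26.2 and 20.2 against 17.9 and 11.9 (0.18, SE 0.54, adjusted p = 0.929). The summed level of 11 feedback genes was nevertheless higher in both skip2 tumours, at 350 and 289.4 against 166.6 to 239.9 (exact two-sided permutation p = 0.0952). It was 70.06 to 92.27 with the isoforms alone and 179.1 to 353.1 in dN90 tumours. Cyclin D1 (Ccnd1) was at 81.4 to 102 with skip1 and 216 and 141 with skip2, without overlap and not called (-0.96, adjusted p = 0.133). Periportal genes gave 0 calls of 23 by limma, 4 at an unadjusted p under 0.05 and 1 by voom, with a median of 0.03.

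Among the 29 genes lower with skip1, H19, an imprinted fetal noncoding RNA (chromosome 7, 142575529 to 142578143), had the largest difference. It was at 1.08, 4.63, 10.2, 11.7 and 5.33 in skip1 tumours and at 196 and 116 in skip2 tumours (-4.57, SE 0.73, limma adjusted p = 0.00182). The libraries with the isoforms alone held at most 1.38, so both tumour groups were mostly above them. Igf2, the imprinted growth factor gene next to H19, was below the filter at 0 to 5.05 in all 7 tumour libraries.

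Igfbp2 (chromosome 1, 72824503 to 72852474), a binding protein for insulin-like growth factors, was at 33.2, 29.5, 26.7, 11.1 and 16.4 in skip1 tumours and 157 and 182 in skip2 tumours. The groups did not overlap (-2.90, SE 0.38, limma adjusted p = 0.000212), and they departed from the isoforms alone (32.1 to 112) in opposite directions, except that skip1 replicate 1 lay inside that range. Itih5 (chromosome 2, 10153571 to 10256529), a hyaluronan-associated inter-alpha-trypsin inhibitor chain, was at 7.53, 6.47, 5.57, 13.5 and 10.7 against 29.9 and 38.7 (-1.91, SE 0.31, limma adjusted p = 0.00204). For Itih5 the skip2 tumours lay above the 19.6 to 29.6 of the isoforms alone and the skip1 tumours below it. Mmp15, a membrane metalloproteinase, was at 14.4 to 29.1 against 78.6 and 94.7 (-1.96, adjusted p = 0.0073).

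The oncofetal and progenitor list gave 0 calls of 6 by limma, 3 at an unadjusted p under 0.05 and 3 by voom, and alpha-fetoprotein (Afp) was below the filter, at no more than 9.29 in any tumour library. The IGF and imprinted list gave 2 calls of 11, H19 and Igfbp2, both lower with skip1, against 0.44% of all genes tested. Its median was -0.48, against -0.03 over all genes tested.

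Of 25 cholesterol synthesis genes, all of which passed the filter, 2 were called lower with skip1, against 0.44% of all genes tested. In 22 the difference was below 0, with a median of -0.46, against -0.03 over all genes tested. Hmgcs1, which encodes a synthase of the early pathway, was at 70.2 to 118 against 204 and 168 (-1.01, limma adjusted p = 0.0492). Without skip2 replicate 2, as without replicate 1, Hmgcs1 was not called, and the list median was -0.50 and -0.60. With the depth covariate 0 of the 25 genes were called, the list median was -0.21 and Hmgcs1 differed by -0.23. Groups did not overlap in 10 of the 25 genes, each time with skip2 above, where 9.95% of all genes did so.

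Bile acid genes moved in both directions, with 3 of 24 higher with skip1 and 1 lower, against 3.09% and 0.44% of all genes tested. Higher were Slco1a1 and Cyp7b1, described above, and Hsd3b7, a steroid dehydrogenase of bile acid synthesis, at 90.5 to 171 against 27.7 and 65.0 (1.56, adjusted p = 0.00832), and by 0.96 without skip2 replicate 1. Cyp39a1, an oxysterol hydroxylase, was lower, at 10.5 to 23.8 against 44.1 and 37.3 (-1.37, adjusted p = 0.0313).

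Of 19 matrix and basement membrane genes 2 were called lower with skip1, against 0.44% of all genes tested, and none higher, with a median of -0.53. In 12 the skip2 libraries stood above all skip1 libraries, as in 9.95% of all genes tested. Nid1, a basement membrane linker, was at 75.8 to 118 against 169 and 222 (-1.11, adjusted p = 0.0488). Eppk1, an epithelial cytolinker, was at 93.4 to 177 against 275 and 348 (-1.26, adjusted p = 0.0325). Notch2, the receptor of biliary development, was at 86.2 to 107 against 178 and 192 (-0.92, limma adjusted p = 0.0401). It was the 1 call among 8 biliary and Notch genes, where 0.44% of all genes tested were called lower. Limma called 0 of 11 YAP target genes, 4 at an unadjusted p under 0.05, and voom 2, with a median of -0.55, and Yap1 overlapped (-0.09).

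Markers of other cells were set beside these groups. Summed biliary and Notch genes were at 740.5 to 1241 in skip1 and 1532 and 1472 in skip2 tumours, although the duct keratins Krt7 and Krt19 did not exceed 3.42 in any tumour library. Summed stellate and fibroblast markers were at 518 to 652.7 against 793.3 and 753.7, with 0 of 11 called by limma or voom and 3 at an unadjusted p under 0.05, and Col3a1 at 79.9 to 122 against 179 and 150 (-0.75, adjusted p = 0.223). Summed macrophage markers overlapped, at 522.7 to 998.1 against 783.4 and 675.2, as did endothelial markers, at 566.4 to 673.1 against 567.4 and 535.1. T and NK cell, B and plasma cell and neutrophil sums did not exceed 25.51 in any tumour. In dN90 tumours the summed biliary and Notch genes were at 908.8 to 2014, and the stellate and fibroblast markers at 278.2 to 554. The part of all these cell types in the differences was not tested.

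**Figure D3:**
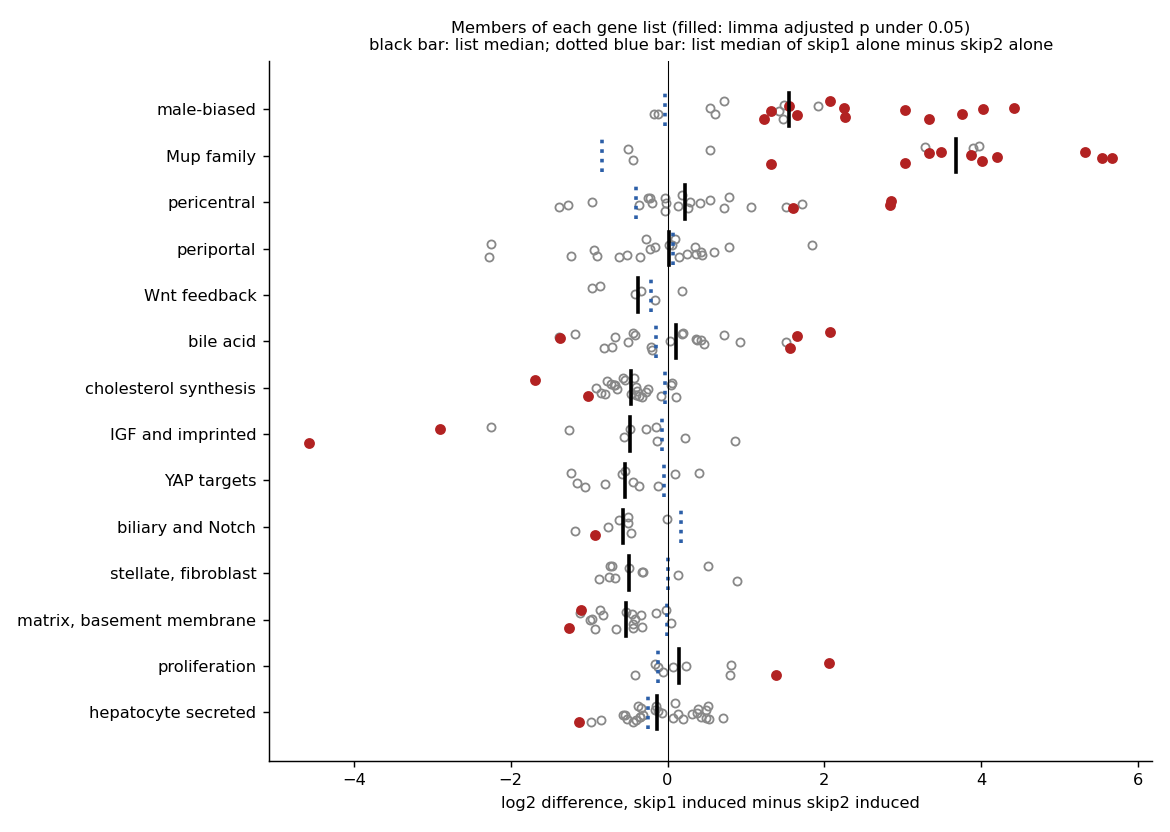
Log2 difference of skip1 induced minus skip2 induced for each member of 14 gene lists that passed the filter, 1 point per gene, filled where limma called it, with the list median as a black bar and the list median of skip1 alone minus skip2 alone as a dotted bar. The male-biased (1.55) and Mup (3.68) lists stand to the right, and the other lists have medians between -0.56 and 0.22.

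Remaining named genes fell into small groups. Of 16 acute phase genes 1 was called in each direction, against 3.09% of all genes tested called higher and 0.44% lower. The carrier protein gene Orm1 was at 38.3 to 132 against 14.7 and 22 (1.93, limma adjusted p = 0.0401). Ceruloplasmin (Cp), a copper oxidase, was at 496 to 865 against 1392 and 1333 (-1.15, limma adjusted p = 0.00764). Alas2, the erythroid first enzyme of heme synthesis, was at 23.9 to 79.1 against 13.3 and 17.2 (1.48, adjusted p = 0.0332). The globin genes Hba-a1, at 19.9 to 124 against 10.6 and 41.7, and Hbb-bt, at 0 to 42.5 against 6.90 and 19.7, overlapped. Tfrc, the transferrin receptor, was lower with skip1, at 4.51 to 11.2 against 30.8 and 19.7 (-1.64, adjusted p = 0.0342).

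Of 10 proliferation genes 2 were called higher with skip1, against 3.09% of all genes tested. Mki67, the standard proliferation marker, was not called, at 25.9 to 50.1 against 53.3 and 33.4 (-0.12, limma adjusted p = 0.952). Aurka, a mitotic kinase, was at 20.4 to 39.4 against 9.65 and 11.9 (1.39, adjusted p = 0.0129). Its level in the isoforms alone, 24.2 to 41.1, overlapped that of skip1 tumours, whereas Mki67 was at most 5.78 there. Ccne2, a cyclin, was at 29.1, 12.9, 34.4, 27.1 and 34.1 against 2.76 and 10.1 (2.07, adjusted p = 0.0112), a difference of 1.28 without skip2 replicate 1 and 1.02 with the depth covariate.

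Metabolic genes called higher with skip1 included G6pc, the last enzyme of glucose release, at 54.9 to 178 against 28.0 and 20.9 (1.95, adjusted p = 0.0241), and Fabp1, the liver fatty acid binding protein, at 144 to 361 against 85.0 and 93.5 (1.30, adjusted p = 0.0256). Serpina3k, a secreted protease inhibitor, was at 1306, 1845, 494, 1203 and 874 against 62.5 and 193 (3.24, SE 0.63, adjusted p = 0.0073). Hectd2, a ubiquitin ligase gene, was at 85.7 to 294 against 1.38 and 47.1 (3.93, adjusted p = 0.0066), a difference of 1.76 when skip2 replicate 1 was left out. Bst2, an interferon-induced membrane protein gene, was at 46.4 to 68.1 against 22.1 and 29.2 (1.13, limma adjusted p = 0.0112). It was the 1 call among 16 interferon-stimulated genes, where 3.09% of all genes tested were called higher. Gm13872, a predicted antisense gene, was at 95.1 to 206 against 3.28 and 21.8 (3.93, limma adjusted p = 0.00057). It lies within Slc1a2, described above, on the opposite strand, so it is not a separate locus.

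Further genes were called lower with skip1. Of those below, all but Sult1a1 were named by a rule that required no overlap between the groups. Their lack of overlap was thus fixed by the choice. Abhd2, a hydrolase gene, was at 62.2 to 74.0 against 131 and 144 (-1.01, adjusted p = 0.012), and Ptpn21, a tyrosine phosphatase gene, at 21.3 to 36.1 against 70.9 and 53.1 (-1.09, adjusted p = 0.0177). Cpd, a carboxypeptidase gene, was at 27.7 to 46.0 against 76.8 and 69.1 (-1.03, adjusted p = 0.0401), and the sulfotransferase gene Sult1a1 at 160 to 211 against 322 and 369 (-0.91, adjusted p = 0.0322). Acsl4, an acyl-CoA synthetase, was lower with skip1, at 36.2 to 58.1 against 144 and 115 (-1.38, adjusted p = 0.00566).

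Several housekeeping and metabolic lists gave 0 calls by limma and 0 by voom. They were ribosomal proteins (24 genes, median -0.05, 0 at an unadjusted p under 0.05), the respiratory chain (26 genes, 0.21, 1), glycolysis (15 genes, -0.28, 3), fatty acid synthesis (16 genes, -0.15, 3), NRF2 targets (16 genes, 0.24, 1) and the beta-catenin destruction and adhesion complexes (15 genes, -0.29, 5).

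The 204 genes called higher differed in kind from the genes tested. Of these, 167 (81.9%) were protein coding, against 95.8% of all genes tested, and 16 (7.84%) were antisense genes, against 1.56%. The median G and C content of their transcripts was 46.4%, against 50.3%. In 177 of the 204, skip2 replicate 1 was the lowest of the 7 tumour libraries, as in 1307 of all 6592 genes tested. Replicate 2 was the lowest in 26, as in 574 of all genes tested. In 58 of the 204, both skip2 libraries lay below all 16 other libraries of the table, as they did for 107 of all 6592 genes. A call higher with skip1 favours low skip2 values, so these counts follow in part from the choice of genes. Protein-coding genes made up 96.3% and 95.3% of the summed values in skip2 tumours and 93.9% to 95.6% in skip1 tumours. The part of depth and library content in these calls was not tested beyond the depth covariate, which cannot separate depth from group.

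The isoforms alone, in separate libraries, asked whether skip1 and skip2 differ without the induced condition. Here limma called 0 of 6592 genes (0%), with 440 at an unadjusted p under 0.05, and 4 were called by voom. Genes called higher in skip1 tumours had a median difference of 0.12 between the isoforms alone, and those called lower one of -0.01. Cyp4a12a differed by 0.03 there, Sult2a8 by -0.48 and Glul by -0.40.

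**Figure D4:**
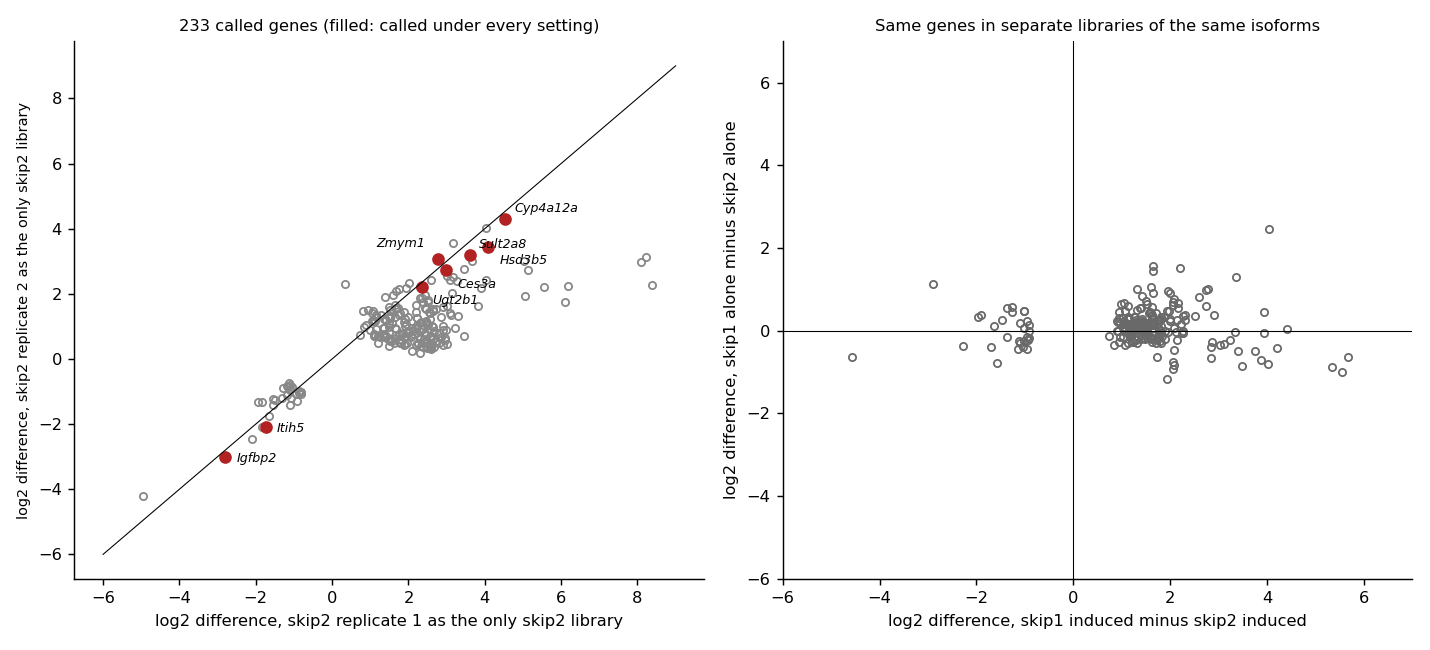
The 233 called genes, 1 point each. Left, log2 difference of skip1 induced minus skip2 induced against replicate 1 alone and replicate 2 alone, with the diagonal as equality and the 8 genes called in every setting filled; right, the tumour difference and the difference between the isoforms alone, where most points lie near 0 on the vertical axis.

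A direct test of whether the tumour difference departed from that between the isoforms alone called 11 genes (0.167%), 9 (0.137%) higher and 2 (0.0303%) lower. Cyp4a12a (4.39, SE 0.63, limma adjusted p = 0.00138), Hsd3b5 (4.25, adjusted p = 0.00138), Sult2a8 (3.88, adjusted p = 0.000339), Ces3a (3.14, adjusted p = 0.0354), Adh6-ps1, Zmym1 and Sycp3 were higher, and Igfbp2 (-4.04, adjusted p = 0.00138) and Itih5 (-2.30, adjusted p = 0.0477) lower. These 9 were also called between the tumours in the same direction. Both tests hold the same tumour libraries, so that overlap is partly built in and is not separate support. The remaining 2, the acute phase genes Saa1 and Saa2, had no called tumour difference. Their skip2 alone libraries were high, and Saa2 was at 3054 and 915 there, 21.3 to 146 with skip1 alone, 7.46 to 27.9 in skip1 tumours and 3.68 and 4.77 in skip2 tumours. The count of 11 ran from 4 to 150 when single libraries were left out, and of the genes named Cyp4a12a, Sult2a8 and Igfbp2 kept the call in every setting.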

How the data were processed

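Normalized counts per gene for 18 libraries (unit signal) were deposited by the authors. FastQC, STAR, RSEM, DESeq2 and mm10 are listed, without versions or roles, per the submitters' processing notes; how the values were scaled is not given in the sources used here. A second deposited table of z-scores was not used. Reads per library were estimated from the step between low values. Between 59.3% and 60.5% of values came out whole within 0.001, so the main test was not a count test. Voom on these estimated reads was run only as an alternative. log2(value + 1) was fitted with limma 3.58.1 (R 4.3.3, trended prior) over all 18 libraries in 6 groups, keeping genes with a mean of at least 10, and p-values were adjusted by Benjamini-Hochberg. The fit was tested on simulated data. Gene lists hold 850 distinct genes. The lists, the groups and the comparison were chosen with earlier results of these data known. Named genes were up to 12 per direction with the largest called difference and a mean of at least 50, up to 4 called per list, and a fixed set; others are named after their values were seen, among them Zmym1, Adh6-ps1, Tuba1c, C6, Mup20, Ghr, Egfr and Ccnd1. Some genes that meet this rule are not reported here. Coordinates are from GENCODE on mm10, promoters from RefSeq on GRCm38.p6; 199 of 204 genes higher with skip1 had an annotation. Alternatives changed the pseudocount, filter, scaling, weights, samples fitted and depth term, and left out single libraries.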

Additional observations from a re-analysis of the deposited data

Results flagged for a closer look

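Among 71 values tested in the 5 skip1 tumours, 4 had 1 library apart from the other 4 by more than 0.71 of the whole range; chance flags about 1 in 20. Replicate 2 was lowest for Ccne2 (12.95 against 27.08 to 34.36, a gap of 0.752 of the range) and for Sptb (18.5 against 30.88 to 37.01, 0.736). Replicate 3 was lowest for the summed endothelial markers (566.4 against 640.6 to 673.1, 0.713) and highest for the summed neutrophil markers (25.51 against 3.749 to 6.099, 0.766).

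The difference between skip1 and skip2 was not the same in tumours as with the isoforms alone for 11 genes in limma's test of the difference itself. The tumour difference minus that of the isoforms alone, on the log2 scale, was above 0 for Saa2 (6.98), Saa1 (6.08), Cyp4a12a (4.39), Hsd3b5 (4.25), Sult2a8 (3.88), Adh6-ps1 (3.42), Ces3a (3.14), Sycp3 (2.90) and Zmym1 (2.54). It was below 0 for Igfbp2 (-4.04) and Itih5 (-2.30). Saa1 and Saa2 were high in the skip2 alone libraries, at 2385 and 887 for Saa1, and their differences were -5.31 (Saa2) and -4.29 (Saa1) with the isoforms alone against 1.67 and 1.79 in tumours, none of them called.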

How the results depend on the processing

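The tumour comparison called 233 genes. It called 400 with array weights, 392 with voom on estimated reads (267 higher and 125 lower), 13 with the depth covariate, and 10 to 342 when single libraries were left out, with 138 without skip1 induced replicate 1 and 136 without replicate 5; quantile normalization gave 245 higher and 94 lower. The isoforms alone gave 0 calls, 4 with a pseudocount of 5, 4 without a filter, 2 with upper-quartile scaling, 3 with array weights, 4 with voom and 1 with the depth covariate, and 0 to 3 when single libraries were left out. The difference of differences gave 11, 21 with a pseudocount of 5, 17 with quantile normalization, 20 with only the compared groups, 24 with array weights, and 4 to 150 when single libraries were left out. None of the uncalled genes Alb, Axin2 and Mki67 kept its direction throughout: Alb stood at 0.16, Mki67 at 1.12 and Axin2 at 1.55 with the depth covariate, and with single libraries left out Axin2 ran from -0.095 to 0.46 and Mki67 from -0.45 to 0.21, while leaving out skip1 induced replicates 1 and 2 together put Mki67 at 0.16. The cause was not tested. Of the called genes named, Ahsg, Abhd2, Cyp7b1, Elovl3 and Mup20 lost the call without skip2 induced replicate 2 as well as without replicate 1; Mup10, Rarres1, Slc1a2 and Tfrc without at least 1 skip1 induced library; and Alas2, Cpd, Cyp39a1, Eppk1, Fabp1, Fmo2, G6pc, Hmgcs1, Lifr, Nid1, Notch2, Orm1 and Sult1a1 in both cases. Tuba1c lost it without replicate 2 and without each of 4 skip1 induced libraries. The number of skip2 libraries, 2, limits every comparison, and genes near 1 estimated read in them have imprecise differences. No paired analysis was possible because no label pairs libraries across groups and replicate numbers follow accession order.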
